A study of Mus musculus with 2 samples.

Results

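The IL-6 family cytokines, their receptor chains and the STAT3 pathway were examined in 2 RNA-seq libraries of fibro-adipogenic progenitors (FAPs) cultured from mouse muscle. FAPs are mesenchymal cells lying between muscle fibres that can turn into adipocytes. The members were the 10 genes Il6, Lif, Il11, Clcf1, Il6st, Osmr, Lifr, Il6ra, Stat3 and Socs3, taken by gene name, and each was found once among the 44291 genes listed. The FAPs were wild type (WT), were sorted from hind limb muscle, and were cultured under adipogenic differentiation in medium with fetal bovine serum, IBMX, dexamethasone and insulin, which both groups shared. The PRP group (1 library) was treated with platelet-rich plasma before the induction, and the control group (1 library) with vehicle. Although PRP is the treatment in the labels, the study's text speaks of a transcriptome of FAPs given exosomes isolated from PRP of young donors. In the study PRP was prepared from human blood. The methods of the study name purchased C57BL/6 mice a few weeks old and give an exosome dose for some cultures, without tying either to these libraries, and for these libraries the labels give no strain, age, dose, time of collection or number of animals.

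Cytokines of the IL-6 family signal through receptor complexes that share the chain gp130, encoded by Il6st. IL-6 and IL-11 first bind a private receptor chain and then gp130, whereas LIF and oncostatin M assemble gp130 with LIFR or OSMR. The complexes activate JAK kinases, which phosphorylate STAT3, and STAT3 drives Socs3, whose protein binds gp130 and closes the loop. In muscle, FAPs are known as a source of IL-6 after injury, and IL-6 and LIF act on muscle stem cells.

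The sequences before the transcription start of Il6, Lif and Socs3 are shown because Il6 and Lif are the members with the largest ratios between the libraries and Socs3 is the feedback gene of STAT3. They are the 250 bases before the RefSeq start on GRCm38.p6, read 5′ to 3′ on the gene's strand, with matches to any of 5 motifs in capitals. The Il6 window is chr5:30012864-30013113 on the plus strand, the Lif window chr11:4257318-4257567 on the plus strand and the Socs3 window chr11:117969367-117969616 on the minus strand. In the GENCODE M21 annotation the Il6 window lies before the gene, the last bases of the Lif window lie in its first exon, and the Socs3 window lies inside the gene, across an intron and an exon of transcripts annotated without a coding sequence.
Il6: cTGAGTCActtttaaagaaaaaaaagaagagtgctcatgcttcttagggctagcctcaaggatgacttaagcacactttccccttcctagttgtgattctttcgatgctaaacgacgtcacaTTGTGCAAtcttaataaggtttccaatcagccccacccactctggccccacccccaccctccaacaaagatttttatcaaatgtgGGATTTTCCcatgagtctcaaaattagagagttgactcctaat
Lif: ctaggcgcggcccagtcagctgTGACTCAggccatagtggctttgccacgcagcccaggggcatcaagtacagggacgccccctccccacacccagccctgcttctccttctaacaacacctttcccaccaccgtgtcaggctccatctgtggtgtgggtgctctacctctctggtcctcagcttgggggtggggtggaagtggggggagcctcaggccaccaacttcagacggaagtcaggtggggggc
Socs3: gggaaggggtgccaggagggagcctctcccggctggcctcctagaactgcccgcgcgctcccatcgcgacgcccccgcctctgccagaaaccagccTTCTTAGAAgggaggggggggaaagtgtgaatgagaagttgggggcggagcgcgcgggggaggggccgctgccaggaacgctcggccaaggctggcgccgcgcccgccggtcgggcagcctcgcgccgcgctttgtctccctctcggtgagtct

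The motifs were searched on both strands as STAT (TTCNNNGAA), NF-kB (GGANNTTCC), AP-1 (TGANTCA), CRE (TGACGTCA) and C/EBP (TTGCNNAA). RefSeq windows were found for 9 of the 10 members, 11 windows in all, while Clcf1 had no entry. The STAT letters stood before Socs3 alone, as TTCTTAGAA from base 154 to base 146 before the start, and 7.02% of 32851 windows of all genes held them. Il6 held 3 motifs, the AP-1 letters from base 249 to base 243, the C/EBP letters from base 128 to base 121 and the NF-kB letters GGATTTTCC from base 43 to base 35. The NF-kB letters also stood before Stat3, from base 244 to base 236, and were present in 3.59% of all windows. The AP-1 letters stood before Lif, from base 228 to base 222, and before 1 of the 2 starts of Il11, from base 98 to base 92, with a share of 6.75% over all windows. The C/EBP letters were held by 9.56% of all windows, and the CRE letters by 1.55% and by no member. No motif overlapped another in these windows. These matches describe the letters only, and binding was not measured.

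**Figure D1:**
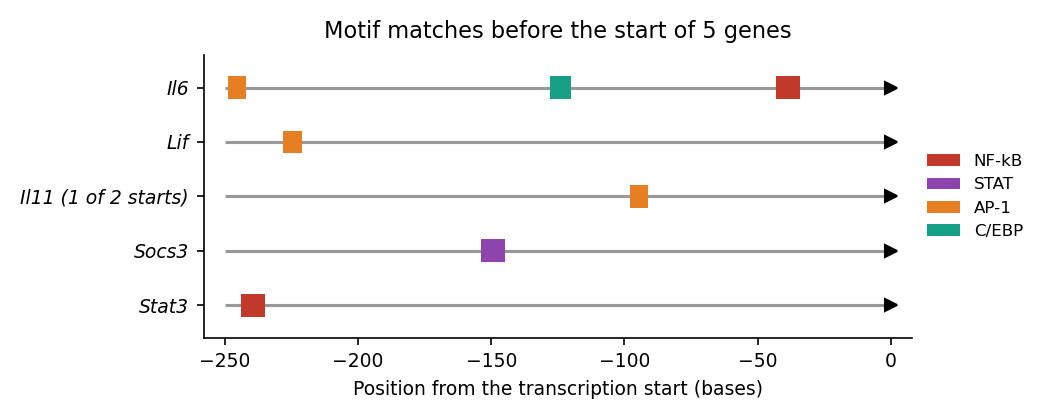
Positions of motif matches in the 250 bases before the RefSeq start of the 5 members with a match, with the start at 0 on the right and 1 row a gene. Il6 carries 3 different motifs and the other genes 1 each, the STAT match of Socs3 lying 154 to 146 bases before its start.

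Levels are given as FPKM, which scales the reads of a gene by its exon length and by the library total and so allows a comparison between genes. Beside a level stands its exact Poisson 95% interval, and beside a ratio between the libraries the exact Clopper-Pearson 95% interval, both on reads recovered from the deposited values and divided by 2, since mates were counted apart. Such intervals cover counting error only and set 1 library against the other, not 1 treatment against the other. They do not allow for PCR duplicates. With 1 library a group no difference was tested and the differences have no replicate check. In these bulk samples fewer cells of a type and less RNA per cell cannot be told apart.

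The reads assigned to genes came to 40120843 for PRP and 34139741 for control. Of 10 FAP markers, 9 had a mean FPKM of at least 1 and all 9 had the lower level with PRP, beside 6586 of all 13401 genes. The list summed to 480.5 FPKM with PRP against 732.2 FPKM. Of these sums Col1a1 made up 118.6 and 218.7 FPKM, while the ratios of Ly6a and Dcn were 0.902 and 0.901. Pdgfra and Ly6a, which encode the surface proteins CD140a and Sca-1, were detected in both libraries, at 19.8 and 59.9 FPKM with PRP and 27.95 and 66.4 FPKM without. The 10 macrophage markers summed to 11.4 FPKM in each library. The 2 above the filter stood on opposite sides, Cd68 at 4.56 against 2.31 FPKM (ratio 1.98, 1.41 to 2.82) and Lyz2 at 4.91 against 7.57 FPKM (ratio 0.648, 0.512 to 0.820), while Ptprc was at 0.0109 and 0.0192 FPKM and Adgre1 at 0.0308 and 0.0543 FPKM. Endothelial markers summed to 9.45 FPKM with PRP and 5.38 FPKM without. Of the 4 myogenic markers found Pax7 and Myog were at 0, and of the 6 platelet markers Ppbp and Gp9 were at 0. The first list summed to 2.91 and 3.43 FPKM, of which Des made up 2.91 and 3.39 FPKM. The second summed to 2.86 and 3.77 FPKM, with Itgb3 at 1.35 and 1.14 FPKM and Gp1bb at 0.872 and 2.26 FPKM. Of the exon bases of Gp1bb 92.9% are shared with other genes on the same strand.

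Among the members averaging 1 FPKM or more, the ligands were higher in the PRP library, and the receptor chains and Stat3 were lower. All 3 such ligands (Il6, Lif and Clcf1) had an interval above 1, and all 3 such receptor chains (Il6st, Osmr and Lifr) had an interval below 1, where 26.1% of 12369 genes lay above 1 and 26.1% below. The ratio reached 2.67 for Lif, whereas Lifr had the lowest ratio of these 3 receptor chains, at 0.743, and Il6st lay close to 1.

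Lif, a cytokine known for keeping stem cells undifferentiated, showed the largest ratio of the 10 genes. It is ENSMUSG00000034394, on the plus strand of chromosome 11 from 4257557 to 4272514 (mm10). Its level was 3.94 FPKM (3.53 to 4.38, 687 reads) with PRP and 1.47 FPKM (1.21 to 1.78, 219 reads) without. These intervals did not overlap, and the ratio was 2.67 (2.15 to 3.34). On the scale of log2(FPKM + 1), which understates the difference of low genes, Lif stood 0.996 higher, just short of the 2-fold line at 1. Over the 13401 genes averaging 1 FPKM or more, 2.04% had a difference at least this high.

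Il6, the cytokine that gives the family its name, was second. It is ENSMUSG00000025746, on the plus strand of chromosome 5 from 30013114 to 30019981. Its level was 3.83 FPKM (3.30 to 4.42, 373 reads) with PRP and 2.09 FPKM (1.67 to 2.58, 173 reads) without. The ratio was 1.83 (1.41 to 2.40), and the difference of 0.65 on the log2(FPKM + 1) scale was matched or exceeded by 4.98% of the genes. Of the macrophage markers, Ptprc and Adgre1 were near 0 in both libraries, whereas Cd68 was higher with PRP and Lyz2 lower. The endothelial markers above the filter were higher with PRP, Kdr at 4.23 against 1.499 FPKM and Tek at 4.73 against 3.56 FPKM. Of those under it, Pecam1 stood at 0.188 against 0.0470 FPKM (47 and 10 reads) and Emcn at 0.203 against 0.173 FPKM. Cdh5 stood at 0.0949 and 0.0976 FPKM and Cldn5 at 0. The part of endothelial cells or macrophages in the Il6 and Lif values was not tested.

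Clcf1, whose protein acts through the CNTF receptor, is ENSMUSG00000040663 on the plus strand of chromosome 19 from 4214238 to 4223490. Its level was 2.79 FPKM (2.43 to 3.19, 426 reads) against 2.20 FPKM (1.86 to 2.59, 286 reads). The ratio was 1.27 (1.02 to 1.58). After rescaling to a common sum without mitochondrial genes and the 50 most abundant genes, the ratio was 1.24 and its interval included no change. Of its exon bases 8.17% are shared with a gene model on the same strand (AC109138.7), so reads there could have been split. Il11, a cytokine linked to fibroblast activation, was barely detected. It is ENSMUSG00000004371 on the minus strand of chromosome 7 from 4772373 to 4782859, with 0.264 FPKM (0.132 to 0.471) from 22 reads with PRP and 0.338 FPKM (0.175 to 0.590) from 24 reads without. Its ratio of 0.780 (0.312 to 1.93) left no direction at this depth.

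**Figure D2:**
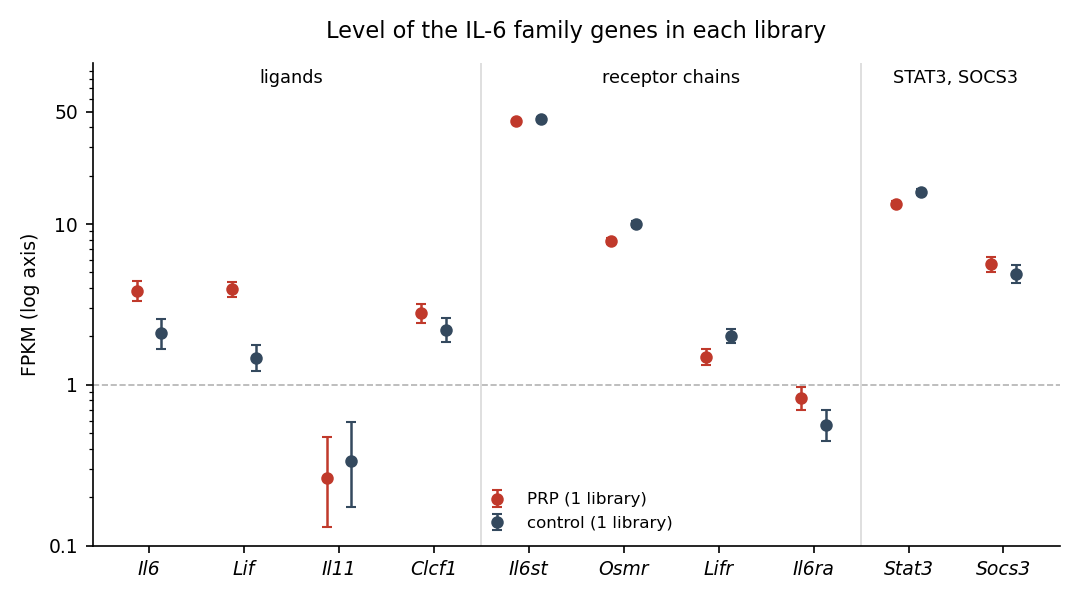
Level in FPKM on a log axis of the 10 genes in the PRP library and the control library (1 library each), with exact 95% Poisson intervals as bars. The PRP points of Il6 and Lif, at 3.83 and 3.94 FPKM, lie above the control points at 2.09 and 1.47 FPKM with intervals apart, whereas Il6st is at 43.5 and 45.0 FPKM.

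Il6st, the shared signalling chain, was the most abundant of the 10 genes. It is ENSMUSG00000021756 on the plus strand of chromosome 13 from 112464070 to 112510086, with 43.5 FPKM (42.6 to 44.4, 19371 reads) with PRP and 45.0 FPKM (44.1 to 46.0, 17064 reads) without. The ratio was 0.966 (0.938 to 0.995), a difference of -0.05 on the log2(FPKM + 1) scale, and 42.5% of the genes were at least this low. The level intervals of Il6st overlapped.

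Osmr, the oncostatin M receptor chain, is ENSMUSG00000022146 on the minus strand of chromosome 15 from 6813577 to 6874969. It stood at 7.87 FPKM (7.52 to 8.23, 3824 reads) against 9.95 FPKM (9.52 to 10.4, 4114 reads), a ratio of 0.791 (0.743 to 0.842). Lifr, the LIF receptor chain, is ENSMUSG00000054263 on the plus strand of chromosome 15 from 7090614 to 7197489. It stood at 1.49 FPKM (1.34 to 1.67, 646 reads) against 2.01 FPKM (1.81 to 2.23, 740 reads), a ratio of 0.743 (0.638 to 0.865). On the log2(FPKM + 1) scale the differences were -0.30 for Osmr and -0.27 for Lifr, with 15.1% and 17.3% of the genes at least this low. Both receptor chains had levels whose intervals were apart between the libraries.

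Il6ra, which binds IL-6 itself, was scarce in both libraries. It is ENSMUSG00000027947 on the minus strand of chromosome 3 from 89864059 to 89913196, with 0.828 FPKM (0.698 to 0.975, 287 reads) against 0.563 FPKM (0.448 to 0.697, 166 reads). Its ratio was 1.47 (1.12 to 1.95), in the direction opposite to the other chains, but its mean was under the filter of 1 FPKM. Of its exon bases 2.8% are shared with a gene on the other strand (Gm42809), and whether the counting used strand was not stated.

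Stat3 was lower in the PRP library and its feedback gene Socs3 could not be told from no change. Stat3, ENSMUSG00000004040 on the minus strand of chromosome 11 from 100885098 to 100939540, stood at 13.4 FPKM (12.9 to 13.9, 5113 reads) against 15.8 FPKM (15.2 to 16.4, 5133 reads). The ratio was 0.848 (0.802 to 0.896), and the difference of -0.22 on the log2(FPKM + 1) scale had 21.6% of the genes at least as low. Socs3, ENSMUSG00000053113 on the minus strand of chromosome 11 from 117966079 to 117970047, stood at 5.62 FPKM (5.03 to 6.27, 652 reads) against 4.88 FPKM (4.29 to 5.54, 482 reads). Its ratio was 1.15 (0.972 to 1.37), and 29.5% of the genes had a difference at least as high as its 0.17. STAT3 is regulated by phosphorylation, which these mRNA levels do not measure.

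None of the 8 members with a mean FPKM of at least 1 was 2-fold higher or lower on the log2(FPKM + 1) scale, where 2.00% of the 13401 genes were at least 2-fold higher and 0.828% at least 2-fold lower. At 1.5-fold, 2 of the 8 (Il6 and Lif) were higher and 0 lower, beside 6.15% and 4.57% of all genes. By the counting interval, 3 of the 8 (Il6, Lif and Clcf1) were above 1 and 4 (Il6st, Osmr, Lifr and Stat3) below, beside 26.1% of genes on each side. The 2 members under the filter were Il11, with an interval that included no change, and Il6ra, with an interval above 1. The median difference over the 8 members was 0.06, beside 0.01 over all genes.

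**Figure D3:**
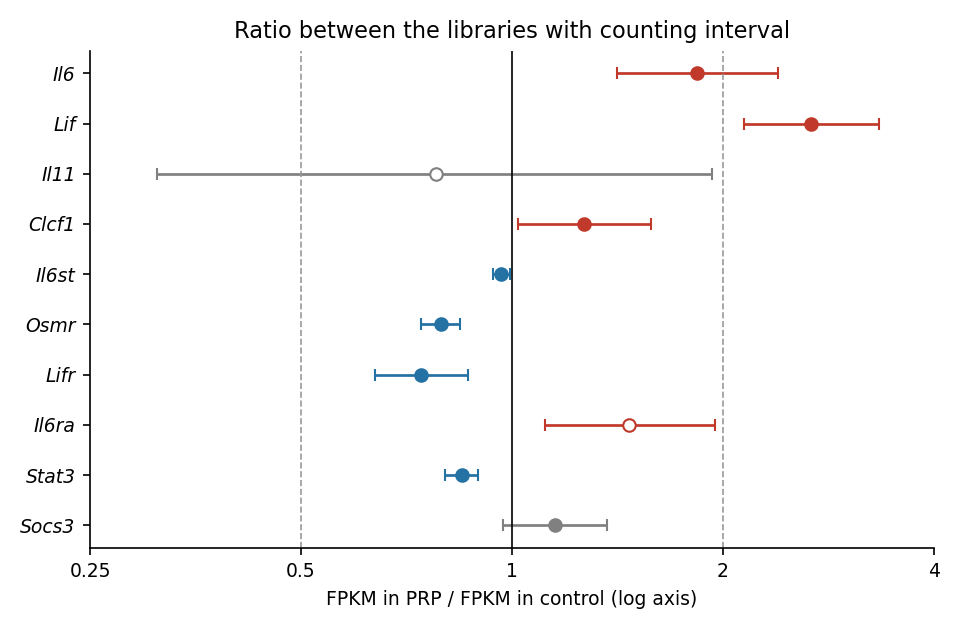
Ratio of FPKM in the PRP library to FPKM in the control library on a log axis for the 10 genes, with 95% counting intervals as bars, open points for the genes under a mean of 1 FPKM, a solid line at no difference and dashed lines at a 2-fold difference. Lif at 2.67 and Il6 at 1.83 lie to the right, while Osmr at 0.791, Lifr at 0.743 and Stat3 at 0.848 lie to the left.

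The order of levels began with Il6st, Stat3, Osmr and Socs3 in both libraries. In the PRP library Lif and Il6 followed with overlapping intervals, then Clcf1, Lifr, Il6ra and Il11, each apart from the next. In the control library Clcf1, Il6 and Lifr followed, Clcf1 and Il6 overlapping and Il6 and Lifr overlapping, then Lif, and last Il6ra and Il11, which overlapped. Lif thus took place 5 in the PRP library and place 8 in the control library.

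The genes whose pair of levels was closest to those of Il6, by distance on log2(FPKM + 1) over the 2 libraries, were Gm30238 (0.04), Oas1a (0.04) and Smt3h2-ps4 (0.05). For Lif they were H2-Q6 (0.07), Kdr (0.08) and Ubd (0.09), and for Socs3 Rabepk (0.0068), Gm7846 (0.0092) and Gm10550 (0.012). With 2 libraries many genes share a pattern, and H2-Q6 belongs to a family of near-identical genes among which reads can be split.

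Among the other ligands of the family, Ctf1 (24 and 28 reads), Cntf (20 and 10 reads), Il27 (10 and 15 reads) and Ebi3 (9 and 0 reads) were near the limit of detection, and 78.9% of the exon bases of Cntf are shared with Zfp91. Osm, which encodes the ligand of OSMR, was listed at 0 in both libraries, as were Ctf2 and Il31.

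Il11ra1, the receptor chain that binds IL-11, was lower in the PRP library, at 3.77 FPKM against 5.27 FPKM, a ratio of 0.715 (0.617 to 0.828). Il11ra2 stood at 0.293 and 0.705 FPKM and is a near-identical copy, so the split of reads between them is uncertain. The remaining chains were scarce, with 46 and 52 reads for Cntfr, 9 and 9 for Il27ra and 5 and 2 for Il31ra.

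Of the 6 JAK kinases and partner STATs, which carry the signal from gp130, 4 were higher and 2 lower, none by 2-fold, with a median of 0.06. Over all 13401 genes averaging 1 FPKM or more, 6815 were higher and 6586 lower, 2.00% and 0.828% by at least 2-fold. Jak2 was higher at 20.7 FPKM against 16.9 FPKM, a ratio of 1.23 (1.15 to 1.31), and Jak1 was slightly lower at 57.6 FPKM against 60.6 FPKM, a ratio of 0.951 (0.921 to 0.981). Stat5b had a ratio of 1.14 with an interval just above 1. For Stat5a (1.14, 0.917 to 1.42) and Tyk2 (0.887, 0.742 to 1.06) the interval included no change.

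Of 14 inhibitors and shedding enzymes, 11 passed the filter, with 4 higher, 7 lower, none by 2-fold and a median of -0.11. Beside them 6815 of all 13401 genes were higher and 6586 lower, 2.00% and 0.828% by at least 2-fold. Adam17, which sheds the IL-6 receptor from the surface, stood at 16.4 FPKM against 19.4 FPKM, a ratio of 0.844 (0.797 to 0.894). Ptpn2, a phosphatase that acts on JAKs and STATs, was higher with a ratio of 1.15 (1.03 to 1.29). The STAT3 inhibitor Pias3 had a ratio of 0.774 (0.624 to 0.960), its relative Pias1 0.813 (0.645 to 1.02) and Socs5 0.891 (0.812 to 0.978). Socs7 stood at 3.73 and 2.67 FPKM, without an interval since its values gave no whole reads.

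Of the pathway lists, the STAT3 targets held the largest differences. Of 30 listed, 28 passed the filter, 17 higher and 11 lower, beside 6815 and 6586 of all 13401 genes. On the log2(FPKM + 1) scale 4 were at least 2-fold higher and 0 lower, beside 2.00% and 0.828% of all genes. The median was 0.13 on this scale. By the counting interval 14 were above 1 and 11 below, beside 26.1% of all genes with an interval on each side. Pim1, a kinase that promotes survival, stood at 5.82 FPKM against 1.73 FPKM, a ratio of 3.37 (2.70 to 4.25), with 14.5% of its exon bases shared with a gene on the other strand. Gadd45g, a stress-induced gene, stood at 189.4 FPKM against 81.1 FPKM, a ratio of 2.34 (2.21 to 2.47). Icam1 had a ratio of 2.31 (2.08 to 2.56) and Ier3 one of 2.32 (1.84 to 2.93). Many of these genes also answer to NF-kB or growth factors, among them Icam1, Ier3 and Myc. Saa3, an acute phase gene, stood at 36.4 FPKM against 18.4 FPKM, a ratio of 1.98 (1.83 to 2.16), and Myc had a ratio of 1.79 (1.54 to 2.07). The lowest of the list, chosen after its values were seen, was Hgf, encoding hepatocyte growth factor. It stood at 0.687 FPKM against 1.78 FPKM, a ratio of 0.386 (0.301 to 0.491). This ratio is more than 2-fold lower, whereas the difference on the log2(FPKM + 1) scale was -0.72.

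Of 10 regulators of Il6 mRNA, 8 passed the filter, 6 higher and 2 lower, beside 6815 and 6586 of all 13401 genes. The median was 0.12 and none was 2-fold on the log2(FPKM + 1) scale, beside 2.00% of all genes higher and 0.828% lower. Zc3h12a, an RNase known to degrade Il6 mRNA, stood at 2.43 FPKM against 1.31 FPKM, a ratio of 1.85 (1.37 to 2.53). Nfkbiz, a cofactor for Il6 transcription, had a ratio of 1.57 (1.35 to 1.83). Zfp36l1, which binds AU-rich elements, had a ratio of 1.27 (1.14 to 1.43), with 55.9% of its exon bases shared with a gene on the other strand. For Zfp36 (1.22, 0.927 to 1.61), Zfp36l2 (0.937, 0.844 to 1.04) and Rc3h2 (1.06, 0.971 to 1.17) the interval included no change.

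**Figure D4:**
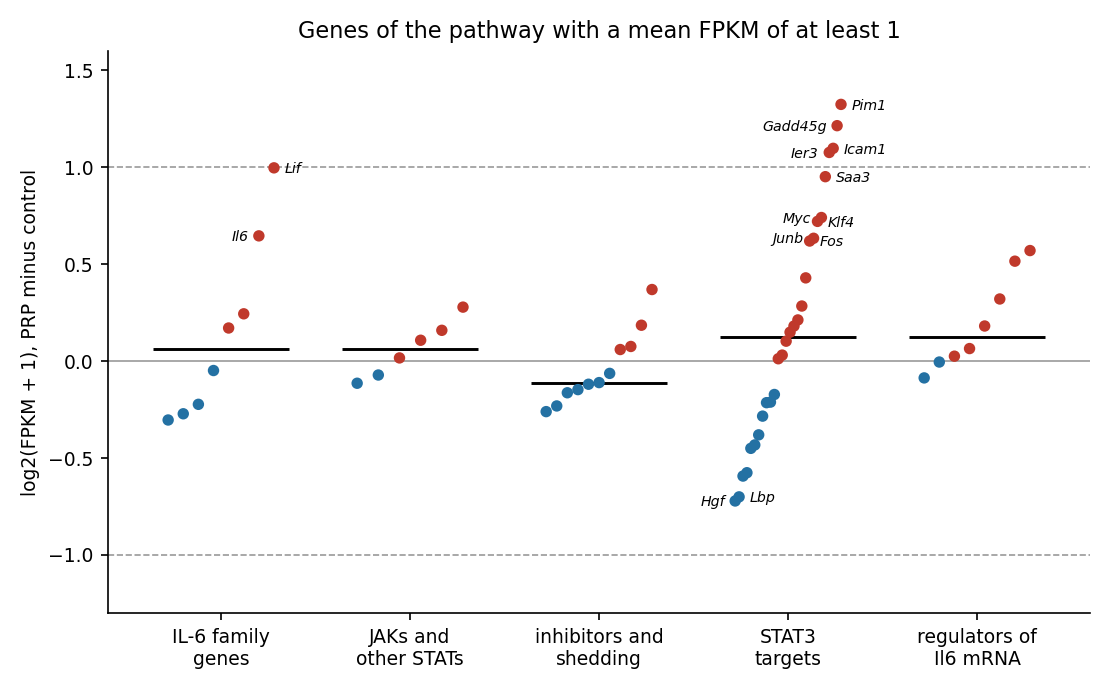
Difference in log2(FPKM + 1), PRP minus control, for each gene with a mean of at least 1 FPKM in 5 gene lists, with the list median as a black bar, no difference as a solid line and 2-fold as dashed lines. 4 STAT3 target genes (Pim1, Gadd45g, Icam1 and Ier3) lie above the upper dashed line and Lif just below it at 0.996.

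The study names let-7f-5p and miR-16-5p as cargo of the exosomes, so the mouse mature sequences are shown with the seed, bases 2 to 8, in capitals. In RefSeq (GRCm38.p6) let-7f-5p comes from chr13:48537889-48537910 on the minus strand and chrX:151912353-151912374 on the plus strand, and miR-16-5p from chr3:69009918-69009939 on the plus strand and chr14:61631936-61631957 on the minus strand.
mmu-let-7f-5p: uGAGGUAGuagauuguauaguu
mmu-miR-16-5p: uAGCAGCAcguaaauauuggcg

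The letters complementary to these seeds, CTACCTC and TGCTGCT, were searched in 3′ UTRs (GENCODE M21, the longest for a gene), and the AU-rich letters TATTTAT were added after the data were seen. The let-7 letters stood in Osmr and Stat3, and 9.86% of 10292 genes averaging 1 FPKM or more with a 3′ UTR held them. The miR-16 letters stood in Lif, Il6st, Lifr and Il6ra, beside 24.6% of these genes. The AU-rich letters stood in all 4 ligands and Socs3, beside 29.9% of these genes. They had 6 matches in Il11, 5 in Lif, 4 in Clcf1, 2 in Socs3 and 1 in Il6. The stability of these mRNAs was not measured. No receptor chain and not Stat3 held the AU-rich letters. Some matches in Il11, Clcf1 and Socs3 overlap each other. Il6ra and Il11 averaged under 1 FPKM and so are not among the genes of these shares.

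1 site of each kind is shown for the members the values turn on, each 29 bases on the mRNA strand with the matched letters in capitals (mm10). The Osmr site is chr15:6814614-6814642 and the Stat3 site chr11:100888704-100888732, both on the minus strand. The Lif sites are chr11:4272294-4272322 and chr11:4270469-4270497, and the Il6 site is chr5:30019728-30019756, on the plus strand.
Osmr, let-7 letters: ttagtttttgaCTACCTCagaacaggaaa
Stat3, let-7 letters: ctcggagtgtgCTACCTCccccatgtgag
Lif, miR-16 letters: ctcctttgcacTGCTGCTctccctctttc
Lif, AU-rich letters: gcacagctgtcTATTTATtactatgtcct
Il6, AU-rich letters: tttatgattgaTATTTATtatttttatga

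The members with let-7 letters, Osmr and Stat3, had ratios of 0.791 and 0.848. Their intervals lay below 1, as did those of 26.1% of 12369 genes. The members with miR-16 letters had ratios of 2.67 for Lif, 0.966 for Il6st, 0.743 for Lifr and 1.47 for Il6ra, so the group held members on both sides of 1. The let-7 letters lay in the UTR of 1 of 2 Osmr transcripts and 1 of 4 Stat3 transcripts, and the miR-16 letters in both Lif transcripts with a UTR. For Il6st and Lifr the miR-16 letters lay in 1 of 5 such transcripts each, and for Il6ra in 1 of 2. Whether these letters are bound in FAPs was not tested.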

How the data were processed

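RNA-seq libraries of mouse FAPs (PRP, 1 library; control, 1 library) were analysed from the FPKM values deposited by the authors. Per the labels, reads were trimmed with fastp 0.23.4, aligned to mm10 with STAR 2.5.3a and counted with featureCounts from a stranded mRNA kit. The annotation release, the use of strand in counting and the conversion to FPKM were not given in the sources used here.

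Reads were recovered from FPKM, the exon lengths of GENCODE M21 and the library total, taken from the smallest recurring value. They were whole within 0.001 reads for 93.7% of the genes above 0 with a length in each library and for all 10 members. Totals were 40120843 and 34139741 reads, and intervals at 95% were computed on reads divided by 2, since 79.3% and 80.3% of the genes with at most 8 reads had an even number. Differences were taken on log2(FPKM + 1) among genes averaging 1 FPKM or more. No test was made with 1 library a group. Procedures were tested on simulated data.

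The members and gene lists were chosen with earlier results of these data known. Named were all members, every other listed ligand and receptor chain, all JAKs and partner STATs, the 6 genes with the largest absolute difference in each other list, and the 3 genes closest in pattern to Il6, Lif and Socs3. Protein sequences were not analysed here. Some genes that this rule names are not reported here. Alternatives covered the pseudocount, the filter, the scaling and the fold threshold. Python 3.11.15, NumPy 2.4.6, pandas 2.3.3, SciPy 1.17.1 and matplotlib 3.10.9 were used.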

Additional observations from a re-analysis of the deposited data

How the results depend on the processing

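No paired analysis was possible because PRP and control had 1 library each, and for the same reason no replicate could be left out. The number of members at least 2-fold higher was 0 as reported. It was 1 (Lif) with a pseudocount of 0.1, 1 (Lif) with each library rescaled to a common sum, 1 (Lif) rescaled without mitochondrial and top genes, and 2 (Il6 and Lif) at a threshold of 1.5-fold. The share of all genes at least 2-fold higher was 3.51%, 2.84% and 2.92% under the first 3 of these, beside 2.00% as reported, and 6.15% at 1.5-fold. Both rescalings changed the size of all values beside the pseudocount of 1, so they also changed its weight. Without a pseudocount the Lif ratio was 2.64 and 2.61 under them, beside 2.67 as deposited. The cause was not tested further. The number at least 2-fold lower was 0 under every alternative tried. The difference of Lif was 1.36 with a pseudocount of 0.1 and 0.46 with a pseudocount of 5. The median of the members lay between -0.14 and 0.07 over the alternatives, so its sign was not stable. It was below 0 only with the filter at a mean FPKM of 5, which kept Il6st, Osmr, Stat3 and Socs3 and no ligand. None of the 8 members above the filter changed sign in the alternatives of scaling, pseudocount and filter. The interval of Clcf1 included no change (0.998 to 1.54) after rescaling without mitochondrial and top genes, and no other member's interval changed side under the rescalings, which were added after the data were seen. Depth limited Il11, with 22 and 24 reads.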
